A study of Homo sapiens with 14 samples.

Results

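The genes FHIT, WWOX, IMMP2L, MACROD2, NBEA, CNTNAP2, LRP1B, DPYD and LSAMP lie in common fragile sites, and their R-loop signal was followed here in cells with wild-type and mutant SF3B1. These 9 of 20007 protein-coding genes were chosen as known fragile site genes, by a rule that uses no peak value. Their gene records in the GENCODE 44 annotation of GRCh38, with 3 kb added at each end, formed windows of 12.8 Mb in all, 0.436% of the sequenced bases of chromosomes 1 to 22, X and Y. A peak was assigned to a gene when it shared at least 1 base with the window.

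The cells were Nalm-6, a human B-cell precursor leukaemia line, in isogenic forms that carried SF3B1 K700K (SF3B1-WT) or SF3B1 K700E (SF3B1-MT), the hotspot substitution of this splicing factor. The sources used here do not say whether each form is a single clone, so a difference between clones cannot be told apart from the genotype. R-loops were mapped by DRIP-seq, in which DNA cut with restriction enzymes is precipitated with the S9.6 antibody against DNA-RNA hybrids. For each genotype, 2 libraries came from untreated DNA and 2 from DNA digested with RNase H before precipitation, labelled RNH1, giving 4 groups and 8 libraries in all. The RNH1-treated libraries are the control, since RNase H degrades the RNA strand of a hybrid and so should remove true R-loop signal.

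Common fragile sites are stretches of the genome that break or gap on chromosomes when DNA replication is slowed. Most sit inside very long genes that replicate late and contain few replication origins, where a transcribing polymerase can meet a replication fork and an R-loop, the hybrid of nascent RNA with its template strand and the displaced single strand, can form. WWOX and FHIT are the best studied of these genes and are often deleted in cancer. Runs of alternating A and T, which can fold into hairpins, and a low GC content are further features known at many fragile sites.

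Over all chromosomes, 123720 and 131096 peaks were listed for untreated SF3B1-WT and 254170 and 296533 for untreated SF3B1-MT. The RNH1-treated lists held 34952 and 77550 peaks in SF3B1-WT and 201804 and 198837 in SF3B1-MT. The mean number was thus 2.16 times higher in untreated SF3B1-MT than in untreated SF3B1-WT, and the RNH1-treated SF3B1-WT pair differed more than any other pair. The 9 windows held 0.489% to 0.552% of the peaks of each list. Read depth is not in the lists, but the pileup at each summit and its local background could be solved from the deposited fold enrichment and p value. For peaks in the 9 genes the median background was 3.51 and 3.67 fragments in untreated SF3B1-WT and 3.72 and 4.77 in untreated SF3B1-MT. It was 2.04 and 2.39 in RNH1-treated SF3B1-WT, the lists with the fewest peaks, and 3.16 and 2.89 in RNH1-treated SF3B1-MT. The RNH1-treated SF3B1-MT lists held more peaks than the untreated SF3B1-WT lists at a lower background. Peak number and background thus did not go together across treatments. Within each treatment, however, libraries with more peaks had the higher median background. The part of these background differences in the peak counts below was not tested.

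The genes were long and most were poor in GC. FHIT, chr3:59747277-61251459 on the minus strand, encodes a diadenosine triphosphate hydrolase and spans 1504 kb with 38.9% GC. WWOX, chr16:78099400-79212667 on the plus strand, encodes a WW-domain oxidoreductase and spans 1113 kb with 42.7% GC, the highest value of the 9. MACROD2, chr20:13995369-16053197 on the plus strand, encodes an ADP-ribose hydrolase and has 37.9% GC. Apart from WWOX the members lay below the genome value of 40.9% GC, and the median of protein-coding genes was 44.8%.

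The remaining genes followed the same pattern. DPYD, chr1:97077743-97995000 on the minus strand, encodes the rate-limiting enzyme of pyrimidine breakdown and has 35.1% GC. IMMP2L, chr7:110662644-111562517 on the minus strand, encodes a subunit of the inner mitochondrial membrane peptidase and has 36.2% GC. Both are metabolic or organelle genes, whereas the last 4 members encode proteins best known from neurons. CNTNAP2, chr7:146116002-148420998 on the plus strand, encodes a neurexin-family protein of axons and is the longest member at 2305 kb (37.5% GC). LRP1B, chr2:140231423-142131016 on the minus strand, encodes a giant receptor of the low-density lipoprotein receptor family and has the lowest GC, 34.8%. LSAMP, chr3:115802374-117139389 on the minus strand, encodes a cell adhesion protein of the immunoglobulin superfamily (37.2% GC), and NBEA, chr13:34942270-35673022 on the plus strand, encodes the BEACH-domain scaffold neurobeachin (35.1% GC). Runs of at least 8 AT repeats numbered 7 in NBEA to 43 in CNTNAP2 and in LRP1B.

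The sequence below the peaks differed between the genotypes. The following stretches are examples from the gene with the largest untreated difference (WWOX) and the one with the smallest (DPYD). Each is 151 bases of GRCh38 around the summit of the strongest region that had a peak in both untreated libraries of one genotype and in neither of the other. Capitals mark runs of at least 3 G or 3 C, the G clusters known to favour R-loops when they lie on the displaced strand.
WWOX, peak in both SF3B1-MT libraries only, chr16:78516822-78516972, plus strand: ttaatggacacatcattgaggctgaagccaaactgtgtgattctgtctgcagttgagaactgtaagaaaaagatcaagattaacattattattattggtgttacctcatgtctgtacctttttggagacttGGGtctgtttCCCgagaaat
WWOX, peak in both SF3B1-WT libraries only, chr16:78286761-78286911, plus strand: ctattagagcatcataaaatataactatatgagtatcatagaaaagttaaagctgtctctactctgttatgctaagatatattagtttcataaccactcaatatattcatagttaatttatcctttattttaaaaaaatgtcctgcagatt
DPYD, peak in both SF3B1-MT libraries only, chr1:97545787-97545937, plus strand: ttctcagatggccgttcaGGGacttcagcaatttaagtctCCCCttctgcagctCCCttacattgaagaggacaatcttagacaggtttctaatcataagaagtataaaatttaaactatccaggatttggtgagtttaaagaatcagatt
DPYD, peak in both SF3B1-WT libraries only, chr1:97621093-97621243, plus strand: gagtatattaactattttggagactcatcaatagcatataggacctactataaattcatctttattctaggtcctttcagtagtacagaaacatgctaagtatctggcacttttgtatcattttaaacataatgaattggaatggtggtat
The SF3B1-MT stretches had 37.7% GC in both WWOX and DPYD, and the SF3B1-WT stretches 25.2% and 31.1%. The stretches from SF3B1-MT held 2 and 3 G or C clusters and those from SF3B1-WT 0 and 0. Not every member showed this contrast. In MACROD2 it was reversed, with 32.5% GC and 1 cluster in SF3B1-MT against 44.4% and 5 in SF3B1-WT. The SF3B1-MT stretches of CNTNAP2 and NBEA held 0 clusters against 2 and 1 in SF3B1-WT, and LRP1B had 2 in each genotype.

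The first comparison asked whether SF3B1-MT cells carry more R-loop peaks over the fragile site genes than SF3B1-WT cells. Every member had more peaks in both untreated SF3B1-MT libraries than in either untreated SF3B1-WT library, but so did 94.1% of the 4188 protein-coding genes that were tested. In limma fits to log2(peaks + 1), the median difference of the 9 genes was 1.11 on the log2 scale, close to the median of 1.05 over all genes tested, so the members moved with the genome-wide shift. WWOX stood out with the largest rise, 2.25 ± 0.42 (log2, SE), and DPYD had the smallest difference, 0.69 ± 0.39. With an adjusted p under 0.05, WWOX, FHIT, MACROD2 and LSAMP rose, 4 of 9, beside 46.0% of all genes tested, and no member fell.

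WWOX held 15 and 25 peaks in the untreated SF3B1-WT libraries and 89 and 103 in the untreated SF3B1-MT libraries, a ratio of means of 4.8. Per Mb this was 17.9 ± 6.32 against 85.8 ± 8.84 (SD, n = 2 each), and the groups were far apart. WWOX had the fewest peaks per Mb of the 9 genes in both genotypes. The difference ranked 72 of 4188 genes, with an adjusted p of 0.0118 from limma. FHIT held 64 and 75 peaks in SF3B1-WT and 165 and 194 in SF3B1-MT, or 46.0 ± 5.15 and 119 ± 13.6 per Mb. Its log2 difference was 1.36 ± 0.38 (adjusted p = 0.0228, limma).

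MACROD2 held 104 and 112 peaks in SF3B1-WT and 253 and 283 in SF3B1-MT, which was the highest density in SF3B1-MT at 130 ± 10.3 per Mb. The rise was 1.30 ± 0.38 (adjusted p = 0.0253, limma). LSAMP held 70 and 87 peaks against 152 and 188, with a log2 difference of 1.11 ± 0.36 (adjusted p = 0.0354, limma). The libraries of the 2 genotypes did not overlap for these genes or for the other members.

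Of the 5 genes that did not pass, CNTNAP2 held 110 and 123 peaks in SF3B1-WT and 251 and 292 in SF3B1-MT, with a log2 difference of 1.21 ± 0.46 (adjusted p = 0.0526, limma). IMMP2L held 61 and 59 peaks against 99 and 123, a log2 difference of 0.87 ± 0.33 (adjusted p = 0.0545, limma). Both lay just past the threshold. LRP1B held 108 and 113 peaks in SF3B1-WT and 176 and 206 in SF3B1-MT (0.78 ± 0.37), and NBEA held 42 and 36 peaks against 60 and 75 (0.77 ± 0.36). DPYD held 63 and 66 peaks in SF3B1-WT, the highest density there at 69.9 ± 2.30 per Mb, and 98 and 112 in SF3B1-MT. The adjusted p of these last 3 genes was 0.0922, 0.0881 and 0.14 from limma.

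**Figure D1:**
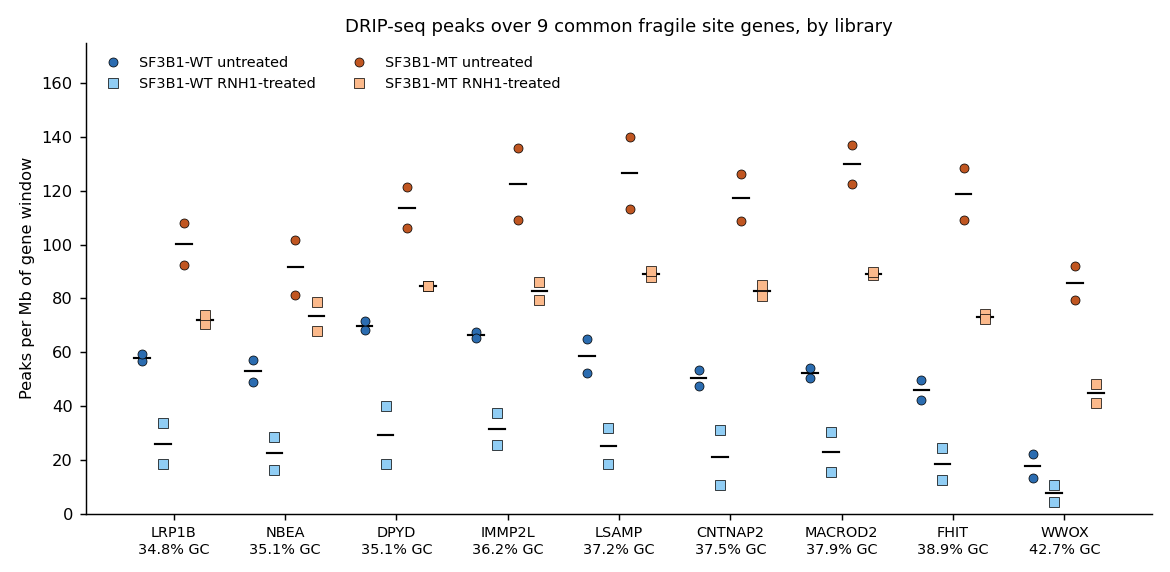
Peaks per Mb of gene window (y axis) in each of the 8 libraries for the 9 genes, ordered from low to high GC content of the window (x axis, percent below each symbol). Points are libraries, filled circles untreated and squares RNH1-treated, and black lines are group means; WWOX, at 42.7% GC, has the lowest density in every group and LRP1B, NBEA and DPYD show the smallest distance between the untreated genotypes.

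The number of calls depended on single libraries. All 9 members rose when the first or the second RNH1-treated SF3B1-WT library was left out of the fit, beside 3691 and 3693 of all 4188 genes. When any of the other 6 libraries was left out, 0 of 9 members and 0 to 2 of all genes passed. The untreated means of the members did not change when an RNH1-treated library was left out.

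To set the genome-wide shift aside, each library was scaled by its total number of peaks. On this scale the median difference was 0.00 over the members and -0.06 over all genes tested, and only WWOX rose (1.14 ± 0.19, adjusted p = 0.0146, limma), beside 1.62% of genes. DPYD fell relative to the library total (-0.42 ± 0.09, adjusted p = 0.0358, limma), beside 2.24% of genes. The other 7 members lay between -0.34 (NBEA) and 0.25 (FHIT) and did not pass. Left out one at a time, each of the 4 untreated libraries ended the call for WWOX. Its scaled difference stayed between 0.83 and 1.45 in these fits, which leave 1 library in a group. For DPYD the call was lost without any of the 4 untreated or the 2 RNH1-treated SF3B1-MT libraries, at differences of -0.43 to -0.40.

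The order of the members followed the base composition of their windows. Across the 9 genes the untreated difference and the GC content had a Pearson correlation of 0.99 and a Spearman correlation of 0.93. These points share the same 4 libraries, so the coefficients are a description. Over the 4188 genes tested the coefficient was 0.302, and over the 321 tested genes of at least 500 kb it was 0.504. For genes of 30% to 36% GC the median log2 difference was 0.65, which is near the values of LRP1B, NBEA and DPYD. In genes of 36% to 38% GC, the class of IMMP2L, LSAMP, CNTNAP2 and MACROD2, the median was 0.88. The class of FHIT, 38% to 40% GC, had a median of 1.06 and that of WWOX, 42% to 44% GC, a median of 1.24. WWOX lay above the upper quartile of its class (1.56), as did FHIT (1.33), MACROD2 and CNTNAP2 (both 1.13), and the other 5 members lay between the quartiles of theirs. A lowess correction for GC within each library also took out the general level of that library. The median over all genes tested thereby became 0.01, so the genome-wide shift was removed together with the GC trend. The members then ranged from 0.03 (DPYD) to 0.90 (WWOX) with a median of 0.17, and 0 of 9 passed (1 of 9 at an unadjusted p under 0.05, limma). Of all 4188 genes 0 passed (227 higher and 293 lower at an unadjusted p under 0.05).

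**Figure D2:**
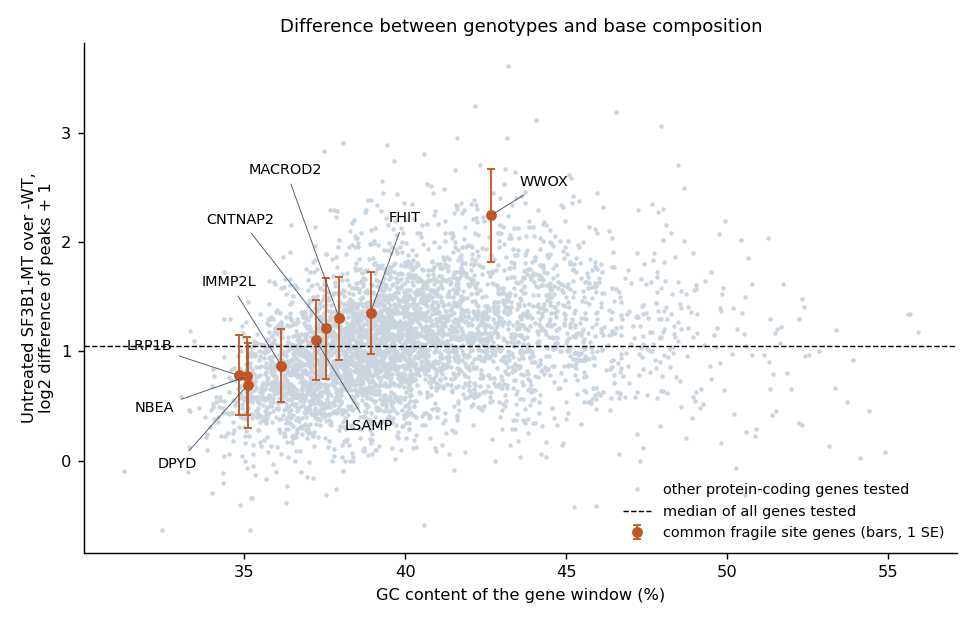
Log2 difference of untreated peaks between SF3B1-MT and SF3B1-WT (y axis) against the GC content of the gene window (x axis, percent). Each grey dot is a protein-coding gene tested and the orange points are the 9 fragile site genes with 1 SE; the dashed line marks the median of all genes, 1.05, and the orange points climb from 0.69 to 0.87 in the 4 most GC-poor genes to 2.25 in WWOX.

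The same held for the peaks themselves. The median GC content of peaks in the 9 genes was 35.9% and 36.5% in untreated SF3B1-WT and 40.6% and 40.1% in untreated SF3B1-MT, without overlap. In WWOX it was 40.1% and 40.3% against 44.5% and 43.1%, and in LRP1B 35.03% and 35.2% against 39.2% and 38.4%. Peaks below 35% GC made up 42.1% and 38.4% of member peaks in SF3B1-WT but 10.3% and 12.4% in SF3B1-MT. All peaks of the genome showed the same order, with medians of 37.0% and 37.5% in SF3B1-WT and 41.6% and 41.1% in SF3B1-MT. Windows of 151 bases around the summit held a G or C cluster (GGG or CCC, read on both strands) for 535 of 637 and 564 of 696 member peaks in SF3B1-WT. In SF3B1-MT the share was 91.9% and 91.1%, and 71308 of 84889 windows of that length tiled over the genes held one. The RNH1-treated lists differed in the same direction. Their member peaks had a median GC content of 36.4% and 37.1% in SF3B1-WT and 39.7% and 39.6% in SF3B1-MT. Shares below 35% GC were 39.9% and 35.2% against 12.7% and 13.7%, and shares with a cluster 85.0% and 83.8% against 90.5% and 91.3%. The AT runs were almost never in a peak. Peaks that overlapped such a run numbered 2 and 1 in untreated SF3B1-WT and 0 in both untreated SF3B1-MT libraries.

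The width and fold enrichment of the listed peaks were alike in the untreated genotypes. The median fold enrichment of member peaks over local background was 4.56 and 4.43 in SF3B1-WT and 4.43 and 4.39 in SF3B1-MT. The median width was 469 and 448.5 bases in SF3B1-WT and 427 and 438 in SF3B1-MT. Only peaks with a q-value of 0.01 or lower are listed, so these medians cannot show that signal strength was equal. The median pileup at the summit of member peaks was 21 and 20 in SF3B1-WT and 22 and 27 in SF3B1-MT. WWOX had the lowest median fold enrichment of the members in both untreated SF3B1-MT libraries, 4.09 and 3.91. On the strand of the gene, the skew of G over C had a median of 0.01 to 0.02 in every untreated library, and 52.1% to 54.1% of peaks had more G than C on the coding strand.

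The second comparison asked how RNase H digestion changed the peaks. In SF3B1-WT all 9 members fell, with log2 differences from -1.43 to -1.07 (adjusted p = 0.0185 to 0.0352, limma), beside 58.9% of all genes tested. FHIT went from 64 and 75 to 19 and 37 peaks, and WWOX from 15 and 25 to 5 and 12. The RNH1-treated mean number was 40.3% (FHIT) to 47.5% (IMMP2L) of the untreated mean, against 44.2% for all peaks. Peak by peak, 21.5% and 35.5% of the untreated member peaks overlapped one of the matched treated list. Both untreated libraries lay above both RNH1-treated ones for all 9 members and for 76.2% of genes. None of the 9 calls remained when an untreated SF3B1-WT library was left out, beside 33 and 0 of all 4188 genes, or any SF3B1-MT library, beside 1059 to 1188 genes. Without the first and the second RNH1-treated SF3B1-WT library 8 and 9 passed, beside 2028 and 3769 genes. The median of the members stayed between -1.72 and -0.79 in these fits.

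In SF3B1-MT the RNH1-treated libraries held 112 and 109 peaks in FHIT, 46 and 54 in WWOX, 183 and 185 in MACROD2 and 187 and 196 in CNTNAP2. They held 134 and 141 peaks in LRP1B, 118 and 121 in LSAMP, 78 and 72 in IMMP2L, 78 and 78 in DPYD and 50 and 58 in NBEA. The treated number was 52.1% of the untreated mean in WWOX, the smallest ratio, 61.6% in FHIT and 72.8% for all peaks. NBEA had the largest ratio, with means of 67.5 untreated and 54 treated peaks. These ratios compare list lengths and not the fate of single peaks, since 49.8% and 48.9% of the untreated member peaks overlapped a peak of the matched treated list. Although both untreated libraries lay above both RNH1-treated ones for all 9 members and for 73.1% of genes, 0 of 9 passed in limma (0 also at an unadjusted p under 0.05, against 10.6% of genes), beside 0.0% of all genes. Without the first or the second RNH1-treated SF3B1-WT library, 8 of 9 passed as lower, beside 1320 and 1321 of all 4188 genes.

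RNH1-treated SF3B1-WT libraries held 17 and 37 peaks in DPYD, 23 and 34 in IMMP2L, 35 and 64 in LRP1B and 12 and 21 in NBEA. The counts were 25 and 43 in LSAMP, 25 and 72 in CNTNAP2 and 32 and 63 in MACROD2. The first library was the lower one for every member, as it was in the list totals. Between the RNH1-treated genotypes all 9 members rose in SF3B1-MT, by 1.39 to 2.53 on the log2 scale (adjusted p = 0.00118 to 0.00404, limma), beside 92.7% of all genes. The groups did not overlap for any member, nor for 96.1% of genes. Scaled by library totals, IMMP2L, LRP1B and DPYD fell in this comparison, 3 of 9, beside 12.9% of genes, and none rose.

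The change on RNase H digestion was more negative in SF3B1-WT than in SF3B1-MT for all 9 members, by 0.28 to 0.93 on the log2 scale, with a median of 0.73 against 0.68 for all genes. This difference between the genotypes passed for 0 of 9 members (0 at an unadjusted p under 0.05, limma), beside 0.0% of genes. It passed for 8 of 9 when the second RNH1-treated SF3B1-WT library was left out, beside 2691 of all 4188 genes, and for 0 without the first, beside 96 genes, so that 1 library decides it. Not every treated peak had an untreated counterpart, which 72.02% and 64.5% of treated member peaks had in SF3B1-WT and 67.5% and 75.6% in SF3B1-MT. The median fold enrichment of member peaks in the RNH1-treated libraries was 5.27 and 5.05 in SF3B1-WT and 5.34 and 5.07 in SF3B1-MT, above the untreated values in both genotypes, in lists whose background was also lower.

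The third comparison took only bona fide peaks, that is untreated peaks that were not overlapped, even by 1 base, in the matched RNH1-treated list. Of the member peaks, 78.5% and 64.5% were bona fide in SF3B1-WT and 50.2% and 51.1% in SF3B1-MT. In WWOX they were 12 of 15 and 21 of 25 peaks in SF3B1-WT and 73.0% and 63.1% in SF3B1-MT. The RNH1-treated lists were shorter in SF3B1-WT, and list length and genotype cannot be told apart in these shares.

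In bona fide peaks WWOX held 12 and 21 in SF3B1-WT and 65 and 65 in SF3B1-MT, and FHIT 50 and 49 against 90 and 110. MACROD2 held 85 and 82 against 129 and 152, CNTNAP2 90 and 76 against 124 and 135, and LSAMP 54 and 57 against 72 and 96. IMMP2L, with 44 and 32 against 45 and 62, was the last of 6 genes whose groups did not overlap, beside 54.7% of the 3178 genes tested. LRP1B held 81 and 70 against 75 and 99, DPYD 48 and 39 against 48 and 51, and NBEA 36 and 23 against 26 and 36. In these 3 genes, the 3 most GC-poor of the 9, the genotypes overlapped or touched.

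The median log2 difference of bona fide peaks was 0.58 over the members and 0.53 over all genes, with WWOX highest at 1.96 ± 0.30 and NBEA lowest at 0.08 ± 0.31. None of the 9 passed (0 of 9 beside 0.0% of genes, lowest adjusted p = 0.0682, limma), while 5 of 9 had an unadjusted p under 0.05, as did 33.9% of genes. The fit rests on 4 libraries. On counts simulated without a genome-wide shift it recovered 0 of 11 changes of 3-fold in genes with at least 20 peaks. A count of 0 is thus no sign of equal groups. Scaled by the bona fide totals, the same fit recovered 11 of 11 such changes. On that scale WWOX (1.41 ± 0.19, adjusted p = 6.32e-07) and FHIT (0.44 ± 0.11, adjusted p = 0.00421) rose in limma, 2 of 9, beside 8.53% of genes. LRP1B fell relative to the totals (-0.36 ± 0.10, adjusted p = 0.00862, limma), 1 of 9, beside 9.85% of genes. The p-values on this scale rest mostly on a spread pooled over genes. With each of the 4 libraries left out in turn, the WWOX difference lay between 0.91 and 1.90. Such fits leave 1 library in a group, so their p-values are not given. In these fits FHIT lost its call without either SF3B1-MT library, and LRP1B lost its call without the first SF3B1-MT library.

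**Figure D3:**
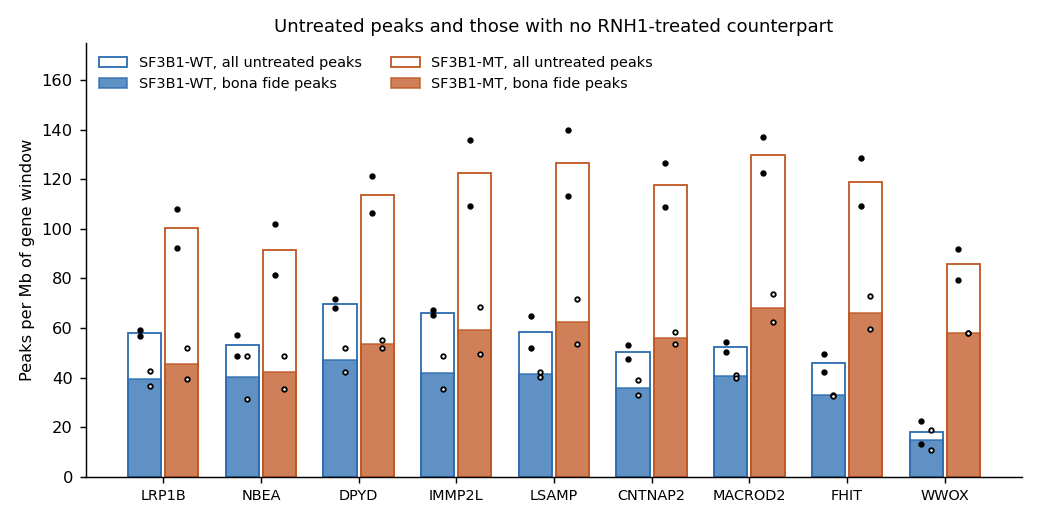
Mean peaks per Mb of gene window (y axis) in the untreated libraries of SF3B1-WT (blue) and SF3B1-MT (orange) for the 9 genes. Open bars are all untreated peaks and filled bars the bona fide peaks, with black points for all peaks and open points for bona fide peaks of each library; in WWOX the filled bars differ most between genotypes and in LRP1B, NBEA and DPYD they nearly meet.

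Peaks were spread along the whole length of the genes. In 100-kb bins counted by summit, both untreated SF3B1-MT libraries lay above both SF3B1-WT libraries in 108 of 124 bins, beside 82.5% of the bins of the genome that hold an untreated peak, and the reverse occurred in 0 bins. All 11 bins of WWOX and all 23 of CNTNAP2 showed it, 19 of 20 in MACROD2 and 13 of 15 in FHIT, but 4 of 7 in NBEA and 13 of 18 in LRP1B. With the bins sorted by GC content into 4 sets of 31, the median log2 difference was 0.79, 0.91, 1.12 and 1.49 from the poorest to the richest set. Over the 124 bins the correlation with GC was 0.536, and 0.443 without those of WWOX, again within the same 4 libraries.

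Stretches without any peak were longer in SF3B1-WT. In WWOX the longest stretch that neither untreated SF3B1-WT library marked was 123 kb, chr16:78783608-78906283, and 30.1 kb in SF3B1-MT. MACROD2 had a 127-kb stretch near its 3′ end, chr20:15890179-16017108, where a bin of 100 kb held 0 and 0 peaks in untreated SF3B1-WT, 0 and 2 in RNH1-treated SF3B1-WT, 10 and 14 in untreated SF3B1-MT and 3 and 5 in RNH1-treated SF3B1-MT. Its longest stretch in SF3B1-MT was 20.8 kb. The longest gap in CNTNAP2 was 93.2 kb against 38.9 kb and in NBEA 59.0 kb against 47.8 kb, and IMMP2L differed least, with 33.4 kb against 26.3 kb. The SF3B1-WT lists were also the shorter ones, and the part of list length or of copy number, which was not measured here, in these gaps was not tested.

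**Figure D4:**
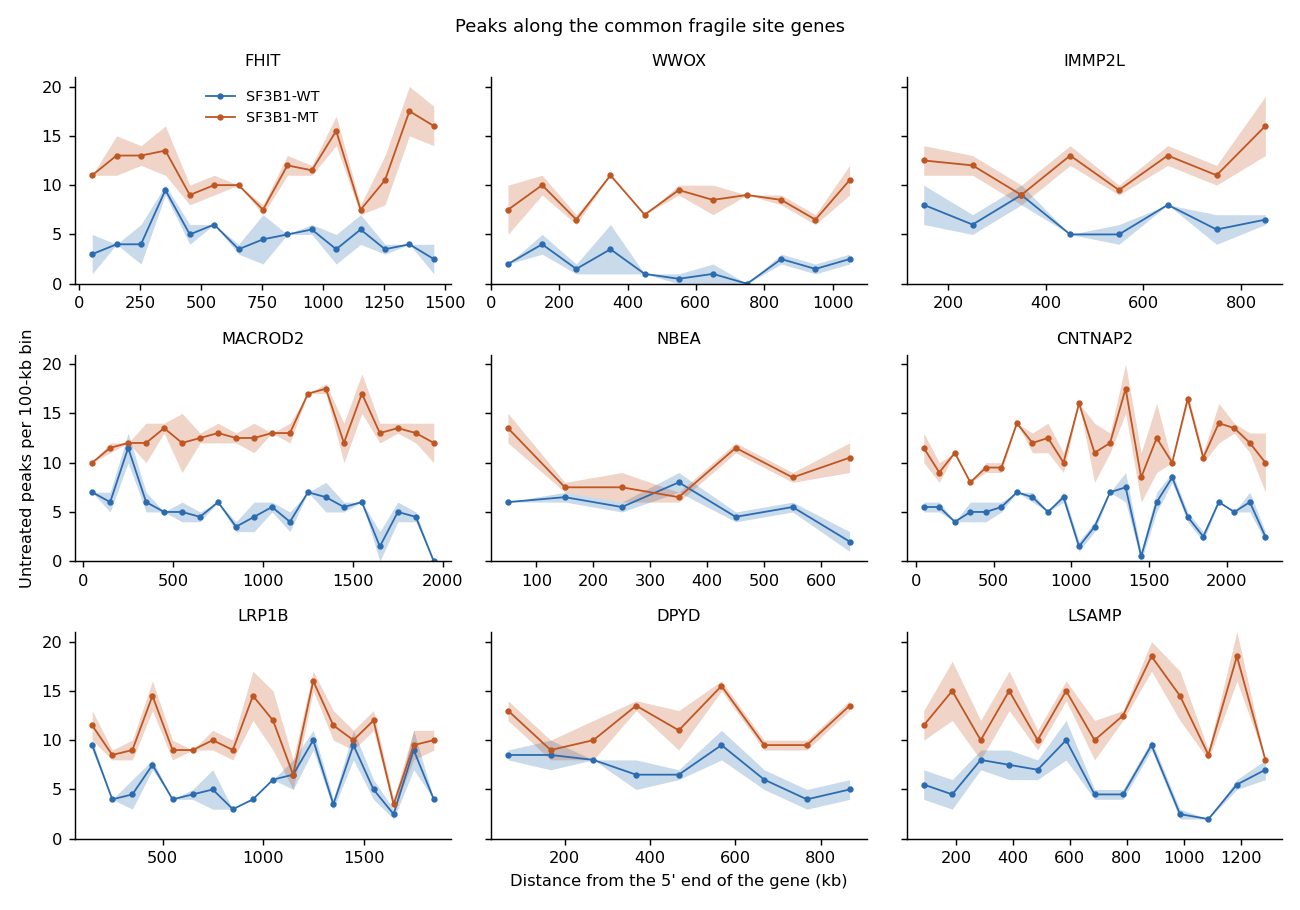
Untreated peaks per 100-kb bin (y axis) against distance from the 5′ end of the gene in kb (x axis) for each of the 9 genes, SF3B1-WT in blue and SF3B1-MT in orange. Lines are means of 2 libraries and bands their range; the orange line lies above the blue one along most of each gene, and the ranges stay apart in all 11 bins of WWOX and all 23 of CNTNAP2.

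Almost all of this signal was intronic. Introns made up 95.9% of window bases and held 96.1% and 97.1% of member peaks in SF3B1-WT and 95.7% and 95.4% in SF3B1-MT. Regions within 3 kb of an annotated transcript start, 3.13% of bases, held 20 and 15 peaks in SF3B1-WT and 39 and 48 in SF3B1-MT, or 2.16% to 3.14% of all. At the 5′ end of the gene record itself, WWOX had 0 peaks in the 4 SF3B1-WT libraries, 2 and 2 in untreated and 3 and 3 in RNH1-treated SF3B1-MT. FHIT had 1 peak there in the second untreated and in the second RNH1-treated SF3B1-WT library, of 3.64 and 3.78-fold enrichment. In SF3B1-MT it had 1 or 2 in each library, with a highest fold enrichment of 7.81 and 8.05 untreated and 8.004 and 7.09 after RNase H. LRP1B, LSAMP and NBEA had none in any of the 8 libraries. Because peaks carry no strand, those in a gene that overlaps another gene cannot be assigned to either.

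When overlapping peaks of the 4 untreated libraries were merged, the 9 genes held 2176 regions. Of these, 227 (10.4%) had a peak in all 4 libraries, 729 (33.5%) in both SF3B1-MT libraries alone and 179 (8.23%) in both SF3B1-WT libraries alone. The genome gave 10.2%, 32.2% and 8.20%. DPYD had the largest share of SF3B1-WT regions, 23 of 166 (13.9%), and WWOX the smallest, 3 of 134 (2.24%), with 53 (39.6%) found in SF3B1-MT alone. The SF3B1-MT regions had a median GC of 40.6% and the SF3B1-WT regions of 33.1%, and 92.9% against 78.2% held a G or C cluster at the summit. No RNH1-treated library of the same genotype had a peak over 306 of the 729 SF3B1-MT regions and 117 of the 179 SF3B1-WT regions.

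The strongest of these regions show both outcomes. In LRP1B, the region chr2:140240047-140240382 in an intron had a fold enrichment of 14.6 and 13.3 in untreated SF3B1-MT and no peak in the other 6 libraries. In CNTNAP2, chr7:146900486-146900919 reached 13.1 and 17.5 in untreated SF3B1-MT and 22.6 and 21.4 after RNase H, and in DPYD, chr1:97545783-97546695 reached 13.7 and 12.8 untreated and 22.2 and 20.9 after RNase H. The fold enrichment of the CNTNAP2 and DPYD regions was thus higher after digestion. The median background of SF3B1-MT member peaks was 3.72 and 4.77 untreated and 3.16 and 2.89 after RNase H. Fold enrichment alone therefore does not show that signal was kept or rose. Among SF3B1-WT regions, DPYD chr1:97621000-97621386 had 11.7 and 15.2 untreated and 10.9 and 11.5 after RNase H, and IMMP2L chr7:111088636-111089014 had 12.4 and 12.2 untreated and 18.8 and 17.0 after RNase H. The IMMP2L region also had peaks of 6.21 and 4.87 in the RNH1-treated SF3B1-MT libraries. The WWOX region whose sequence is shown for SF3B1-MT had 10.4 and 11.6 untreated and 6.66 and 7.88 after RNase H, and the one for SF3B1-WT had 4.97 and 5.52 and no RNH1-treated peak.

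Many peak edges fell on the restriction cuts. The DNA had been cut with HindIII (AAGCTT), EcoRI (GAATTC), BsrGI (TGTACA), XbaI (TCTAGA) and SspI (AATATT), whose recognition sites each read the same on both strands. Together these sites numbered 1668 per Mb in WWOX, the fewest, to 2685 per Mb in NBEA, the most. Within 0 to 9 bases of a cut lay 29.8% of the 2666 edges of untreated SF3B1-WT peaks in the 9 genes and 26.9% of the 5838 edges of untreated SF3B1-MT peaks. The share was 28.8% and 27.3% in the RNH1-treated lists, and 4.34% for all bases of the windows. At 10 to 19 bases the share was already below that of all bases, 0.55% in untreated SF3B1-MT against 4.31%. The excess of edges thus lay on the cuts and not merely near them, while most edges lay farther from a cut. Of all untreated member peaks, 59.7% and 56.9% in SF3B1-WT and 53.5% and 55.1% in SF3B1-MT had an edge within 30 bases of a cut. For each gene, the untreated peak of highest fold enrichment in each genotype was examined, and 17 of these 18 peaks had one edge within 4 bases of a cut. The 61 bases around 6 of these edges are shown to let the cut and the edge be seen together, with the recognition sites in capitals and the edge at base 31.
FHIT, end of its highest SF3B1-MT peak, chr3:60834093-60834153, plus strand: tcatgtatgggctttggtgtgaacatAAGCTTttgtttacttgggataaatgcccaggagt
WWOX, end of its highest SF3B1-WT peak, chr16:78123329-78123389, plus strand: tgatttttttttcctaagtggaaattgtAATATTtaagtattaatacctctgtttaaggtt
CNTNAP2, end of its highest SF3B1-MT peak, chr7:146900889-146900949, plus strand: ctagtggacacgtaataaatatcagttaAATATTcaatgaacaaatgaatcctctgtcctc
NBEA, start of its highest SF3B1-MT peak, chr13:35190260-35190320, plus strand: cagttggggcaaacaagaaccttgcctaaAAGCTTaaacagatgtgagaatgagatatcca
DPYD, start of its highest SF3B1-WT peak, chr1:97620970-97621030, plus strand: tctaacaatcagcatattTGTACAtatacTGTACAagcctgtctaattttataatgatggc
LSAMP, start of its highest SF3B1-MT peak, chr3:116133991-116134051, plus strand: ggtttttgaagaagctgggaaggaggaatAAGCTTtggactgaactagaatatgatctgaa
HindIII sites lie at the FHIT, NBEA and LSAMP edges, SspI sites at those of WWOX and CNTNAP2 and a pair of BsrGI sites at that of DPYD.

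**Figure D5:**
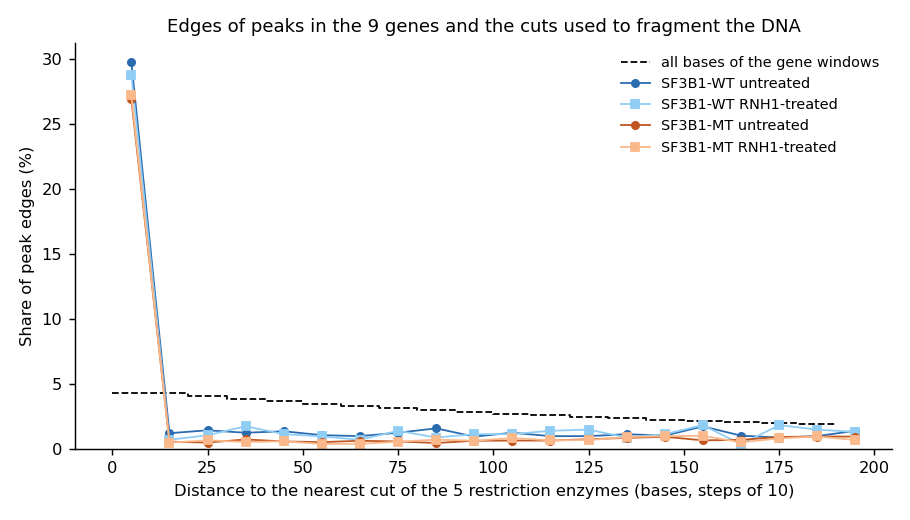
Share of peak edges in the 9 genes (y axis, percent) by distance to the nearest cut of the 5 restriction enzymes (x axis, steps of 10 bases), one line for each group, with the dashed line for all bases of the gene windows. The first step holds 26.9% to 29.8% of edges against 4.34% of bases, and the lines of the 4 groups lie close together.

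Peaks recurred between replicates. In untreated SF3B1-WT, 72.7% of the member peaks of the first library overlapped a peak of the second, and in SF3B1-MT 82.4%, against 71.1% and 81.1% for all peaks. Across genotypes, 46.3% and 51.0% of the member peaks of the first untreated SF3B1-WT library met a peak of the SF3B1-MT libraries, and 22.5% and 24.6% of those of the first untreated SF3B1-MT library met a peak of the SF3B1-WT libraries. The density of the members was near that of other long genes. Summed over the 9 windows it was 49.7 and 54.3 peaks per Mb in untreated SF3B1-WT and 105 and 123 in SF3B1-MT, against 47.9 and 50.2 and 99.2 and 115 in the 323 genes of at least 500 kb.

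A further list of 17 large genes at or near fragile sites, among them DMD and DLG2, gave a like picture. In untreated cells 10 of the 17 rose in SF3B1-MT, beside 46.0% of all genes, and none fell, with a median of 1.17 against 1.05 for all genes. PTPRG, a receptor tyrosine phosphatase, had the largest difference, 1.83 ± 0.36, with 18 and 25 peaks against 70 and 87, followed by RORA, a nuclear receptor, at 1.68 ± 0.36. NAALADL2 had the smallest, 0.58 ± 0.37. DMD, at 36.4% GC, had 1.60 and SDK1, at 43.2% GC, 1.21, so the order did not follow GC throughout. RNase H digestion lowered 16 of 17 in SF3B1-WT, beside 58.9% of all genes, and 0 of 17 in SF3B1-MT, beside 0.0%.

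Outside both lists, the genes whose density over the 8 libraries lay nearest to the mean profile of the members were GPC6, ERC1 and B3GALT1, at distances of 0.17, 0.25 and 0.28 in log2(peaks per Mb + 1), of 297 candidates of at least 500 kb. GPC6, which encodes a glypican, held 50.5 peaks per Mb in both untreated SF3B1-WT libraries and 105 and 127 in SF3B1-MT. FHIT was the nearest member itself, at 0.36, and WWOX the farthest, at 3.13.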

How the data were processed

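DRIP-seq was analysed in 8 Nalm-6 libraries, 2 in each of 4 groups. The authors used BWA-MEM against GRCh38, discarded mitochondrial and duplicate reads (SAMtools, Picard) and called narrow peaks in each library with MACS2. There is 1 list for each library, and the untreated lists still hold peaks that overlap RNH1-treated ones. Their deposited lists give a fold enrichment ratio, −log10 of the p-value and q-value, a score and a summit; all q-values are 0.01 or lower. An exon-junction table of HEK293T cells was not used here, and reads, copy number and Nalm-6 expression were not analysed here.

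Peaks per gene window (3 kb flanks) were counted for 20007 protein-coding genes. Genes with a mean of at least 5 peaks (4188, or 3178 for bona fide peaks) were fitted as log2(peaks + 1) by limma 3.58.1 (R 4.3.3) with a trended prior, 4 groups sharing 1 spread, and Benjamini-Hochberg adjustment over all genes at 0.05. A log2 difference understates changes at low counts. Tests were two-sided; 2 against 2 libraries allow no exact permutation p below 0.333. All 9 members, and each one's strongest peak and genotype-specific region, were named. The members and lists were chosen with earlier results of these data known. Nothing says that the libraries came from separate cultures, so p-values measure spread between libraries only. Alternatives were scaling, GC correction, filters, pseudocount, peak thresholds, window definitions, a replicate block and leaving out libraries. The simulated counts had equal group means except in 200 genes. On them the untreated fit recovered 2 of 16 changes of 3-fold in genes with at least 20 peaks, and 13 of 16 when scaled. The real lists also held a genome-wide shift, so recovery in them may differ. Results that need items withheld from the text are not reported here.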

Additional observations from a re-analysis of the deposited data

How the results depend on the processing

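Untreated, 4 of 9 members passed, all as higher. When scaled by library totals 2 passed, 1 as higher and 1 as lower, and 0 passed after GC correction. The count also depended on which library was left out. Scaling reversed the median of the members (-0.0029) and IMMP2L (-0.24), NBEA (-0.34), LRP1B (-0.33), DPYD (-0.42) and LSAMP (-0.0029). Of the 90 values for single genes under the 10 alternatives, 72 kept their direction and side of the threshold. The scaled untreated count of 2 became 0 to 7 without 1 library, its median -0.12 to 0.11 and LSAMP -0.12 to 0.11 (added after seeing the data). Between RNH1-treated genotypes, 9 of 9 passed as higher. With scaling 0 passed as higher and 3 as lower, with GC correction 0 passed, and the median turned to -0.11 and -0.075. For RNase H in SF3B1-WT, 9 became 0 with scaling, 0 with GC correction and 1 with no filter on low values, the median turned to 0.053 and 0.16, and leaving out 1 library gave 0 to 9. For RNase H in SF3B1-MT and for the difference between genotypes, leaving out 1 library gave 0 to 8, and the median of the latter turned to -0.11 with scaling and -0.26 with GC correction.

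Bona fide, 0 of 9 became 3 with scaling (2 higher and 1 lower) and 2 with covered bases. Scaling reversed IMMP2L (-0.075), NBEA (-0.47), LRP1B (-0.36) and DPYD (-0.37). A fold enrichment of at least 4 reversed NBEA (-0.35), LRP1B (-0.23) and DPYD (-0.27), covered bases NBEA (-0.16) and DPYD (-0.063), and a −log10 q of at least 5 DPYD (-0.016). Leaving out 1 library gave NBEA -0.23 to 0.40 and LRP1B -0.0057 to 0.39. The scaled bona fide count of 3 became 1 to 6 without 1 library, with medians of -0.045 to 0.078, IMMP2L between -0.18 and 0.033 and LSAMP between -0.14 and 0.17. With the replicate block, 5 members passed untreated and the counts of the other comparisons were unchanged; same-numbered libraries showed correlations of deviations of -0.06 to 0.02, although, per the methods, a digested and an undigested sample share their DNA. The cause of these changes was not tested. Depth is unknown, which limits what a missing peak shows, and 2 libraries a group limit every test.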
